A study of Mus musculus with 45 samples.

Results

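The data were H3K9ac levels at 20 of the 44165 domains of a chromatin immunoprecipitation and sequencing (ChIP-seq) study of mouse hippocampus. H3K9ac is acetylation of histone H3 at lysine 9, a mark of active promoters and enhancers. The members were 3 lead domains, in the Sbno2, Mir21/Vmp1 and Fam46a regions, and every other domain within 30 kb of one of them, edge to edge. The Sbno2 region held 12 domains, the Mir21/Vmp1 region 7 and the Fam46a region 1. The leads were chosen by their measured H3K9ac gains, with earlier results of these libraries in view, among them the large changes of the Sbno2 and Mir21 leads in tau mice at 11 months. All 11-month values are therefore descriptions here, and no test of them is read as support. It was not stated whether values from CK-p25 mice also entered the choice, and the p-values for those mice do not allow for it.

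The libraries of the tau series came from mice with a transgene for the P301S mutant of human tau (MAPT) and from wild type mice matched for age and sex, at 6 months (2 tau and 3 wild type libraries, females) and at 11 months (3 and 3, males), so that age and sex changed together. The other series compared female double-transgenic CK-p25 mice, in which p25 can be induced, with littermates labelled CK. Tissue was taken 2 weeks after induction, at 3.5 months of age, and 6 weeks after it, at 4.5 months, with 3 libraries in each of the 4 groups. In CK-p25 mice p25, a fragment of p35 that activates the kinase Cdk5, is made in forebrain neurons and neurons are lost, while P301S tau mice form tau aggregates. The labels do not name the promoter of the tau transgene. The 2 series used different lots of the antibody and were fitted apart. The labels do not say that each library came from a separate animal, so the p-values measure the spread between libraries.

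Sbno2 encodes a helicase-like transcriptional regulator known as a target of interleukin and STAT3 signalling in myeloid cells and astrocytes. The microRNA miR-21 is transcribed from its own promoter, which lies within the gene for the autophagy membrane protein VMP1, and is known for induction in reactive glia and in inflammation by STAT3 and AP-1. Fam46a, now named Tent5a, encodes a non-canonical poly(A) polymerase. In bulk hippocampus, a higher share of cells that carry the mark and more mark per cell cannot be told apart.

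In the RefSeq table of GRCm38.p6 the neighbours of Sbno2 were Gpx4 and Stk11, those of Vmp1 were Tubd1 and Mir21a, and those of Tent5a were Bckdhb and Ibtk. The domains were deposited on mm9, for which no annotation was used here. Region names are those given with the leads, and whether a domain lies in a promoter, exon, intron or UTR was not determined. For the same reason, levels at marker genes of hippocampal cell types and at other STAT3 pathway genes were not examined, and the tissue label was not checked against markers.

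The mature products of Mir21a are printed to identify the microRNA of the second region, with the seed (bases 2 to 8, the part that pairs with targets) in capitals. The hairpin has both mature products in capitals. All are RefSeq sequences of GRCm38.p6.
mmu-miR-21a-5p: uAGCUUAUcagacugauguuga
mmu-miR-21a-3p: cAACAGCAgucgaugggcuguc
mmu-miR-21c: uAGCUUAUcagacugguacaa
Mir21a hairpin: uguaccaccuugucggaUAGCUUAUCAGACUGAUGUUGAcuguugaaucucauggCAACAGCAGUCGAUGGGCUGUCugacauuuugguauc
Of 1679 mature mouse microRNAs in the table, only miR-21a-5p and miR-21c had the seed AGCUUAU, and only miR-21a-3p had AACAGCA. The 2 microRNAs that share a seed come from different chromosomes, 11 for Mir21a and 8 for Mir21c. H3K9ac does not measure these RNAs, and their levels were not assayed.

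The 250 bases before an annotated start were searched on both strands for TTCNNNGAA (bound by STAT factors), TGANTCA (AP-1), CCAAT and TATAAA. Both Sbno2 starts with a match, the first Vmp1 start and the first Tent5a start are shown, from RefSeq GRCm38.p6, 5′ to 3′ on the minus strand of chromosomes 10, 11 and 9. Motif matches are in capitals.
Sbno2 start 1: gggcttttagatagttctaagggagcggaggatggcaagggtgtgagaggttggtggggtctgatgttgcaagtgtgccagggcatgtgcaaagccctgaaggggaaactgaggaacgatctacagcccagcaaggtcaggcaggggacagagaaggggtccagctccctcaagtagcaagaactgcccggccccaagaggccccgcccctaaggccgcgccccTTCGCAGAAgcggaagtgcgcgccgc
Sbno2 start 2: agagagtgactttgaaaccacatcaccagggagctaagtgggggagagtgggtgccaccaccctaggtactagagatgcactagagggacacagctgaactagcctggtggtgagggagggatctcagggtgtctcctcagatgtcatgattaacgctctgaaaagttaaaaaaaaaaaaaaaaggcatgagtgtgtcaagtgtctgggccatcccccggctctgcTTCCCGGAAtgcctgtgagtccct
Vmp1 start 1: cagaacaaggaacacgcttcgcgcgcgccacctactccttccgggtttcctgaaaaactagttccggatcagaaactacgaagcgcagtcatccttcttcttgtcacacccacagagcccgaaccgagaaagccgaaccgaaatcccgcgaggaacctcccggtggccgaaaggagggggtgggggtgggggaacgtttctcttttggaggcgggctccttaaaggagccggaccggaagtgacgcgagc
Tent5a start 1: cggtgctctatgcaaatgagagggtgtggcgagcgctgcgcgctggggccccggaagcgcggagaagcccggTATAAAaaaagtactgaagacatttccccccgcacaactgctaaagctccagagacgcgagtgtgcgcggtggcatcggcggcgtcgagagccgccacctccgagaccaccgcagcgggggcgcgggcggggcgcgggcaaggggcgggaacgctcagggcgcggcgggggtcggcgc
TTCNNNGAA occurred in the windows of 2 of 3 Sbno2 starts, beginning 26 and 24 bases before the start. It occurred in 7.02% of 32851 mouse windows of the same length. None of the 4 motifs occurred in the windows of the 3 Vmp1 starts. No window for Mir21a was available, so the promoter of miR-21 itself was not searched. In the Tent5a window TATAAA began 178 bases before the start, against a share of 12.4% of all windows, and the second Tent5a start lay in an overlapping window with the same match. The Tent5a window held 34 CpG and was 70.0% G and C, against medians of 6 CpG and 52.4% over all windows. A match describes these letters only, and whether the windows overlap the mm9 domains was not determined.

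The leads were wide domains. At chr10:79535676-79539111, the Sbno2 lead (peak25132 in the deposited list) spanned 3436 bp and was wider than 94.9% of all domains. The Mir21 lead (peak28174), at chr11:86398403-86401198, spanned 2796 bp (wider than 91.1%), and the Fam46a lead (peak23116), at chr9:85218538-85222314, spanned 3777 bp (96.1%). The median domain spanned 776 bp. Their surroundings differed more than their widths. The Sbno2 lead had 11 neighbours, the nearest at 522 bp, and the Mir21 lead had 6, the nearest at 155 bp. The Fam46a lead stood alone, with its nearest domain at 419444 bp, a gap exceeded by 0.41% of domains. The 30 kb limit cut through the Sbno2 region, where the last domain inside lay at 28472 bp and the first outside at 30252 bp. In the Mir21/Vmp1 region these lay at 6813 and 39001 bp.

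Libraries of the tau series held 4.10 to 6.18 M reads in domains, and those of the other series 0.996 to 4.13 M. Levels are reads per M reads in domains after TMM scaling (CPM). All 20 members passed the filter on low counts in the tau series, and 18 did in the CK-p25 series. Those that failed were chr10:79512923-79513207 and chr11:86391476-86391589. The leads held 17 to 407 reads per library, so that the counts in the shallowest 6-week libraries (CK replicate 3 and CK-p25 replicate 3) were small. Cross correlation, a measure of ChIP enrichment in the labels, was lower in tau (0.206 to 0.257) than in wild type libraries (0.296 to 0.342) at 11 months. Its mean at 2 weeks was 0.138 in CK and 0.167 in CK-p25 mice, and at 6 weeks 0.0928 and 0.131, with overlapping libraries at both times.

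H3K9ac rose at all 3 leads in CK-p25 mice, relative to CK mice, at both times, about 2-fold at Sbno2 and Mir21 and less at Fam46a. At 2 weeks the Sbno2 lead measured 27.2, 24.0 and 16.9 CPM in CK and, in CK-p25 libraries, 46.0, 59.4 and 58.8 CPM. After 6 weeks the CK libraries measured 25.9, 25.7 and 21.5 CPM and the CK-p25 libraries 46.3, 48.6 and 61.8 CPM. Every CK-p25 library lay above every CK library at its own time and at the other. All CK-p25 libraries exceeded all CK libraries at 8.25% of tested domains at 2 weeks and at 8.81% at 6 weeks. On the log2 scale the lead rose by 1.23 ± 0.14 (SE) at 2 weeks (2.34-fold; edgeR adjusted p = 1.02e-11) and 1.00 ± 0.16 at 6 weeks (2.00-fold; edgeR adjusted p = 4.11e-06). Of 38193 domains tested, 99.1% had a lower log2 change at 2 weeks and 98.2% at 6 weeks. The lead was chosen for a gain, and CK-p25 values may have entered the choice, so these ranks are descriptions.

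The Mir21 lead had lower counts and a change of similar size. Its CK libraries at 2 weeks measured 20.1, 13.9 and 14.4 CPM and its CK-p25 libraries 30.3, 35.2 and 44.8 CPM. At 6 weeks the values were 17.3, 18.4 and 17.4 CPM in CK mice, against 36.3, 42.2 and 34.8 CPM with p25. The groups did not overlap at either time, and CK replicate 1 at 2 weeks was the highest of the CK libraries. At 2 weeks the log2 change was 1.18 ± 0.16 (SE; 2.27-fold; edgeR adjusted p = 3.16e-08), and 1.11 ± 0.18 (2.16-fold; edgeR adjusted p = 9.13e-06) at 6 weeks.

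The isolated Fam46a lead rose less. Its CK libraries at 2 weeks measured 43.6, 35.6 and 34.4 CPM and its CK-p25 libraries 58.5, 75.4 and 66.8 CPM. At 6 weeks the CK libraries lay close together at 43.2, 42.8 and 44.1 CPM, and the CK-p25 libraries measured 70.0, 65.0 and 75.0 CPM. The groups again did not overlap. The log2 change was 0.82 ± 0.11 (SE; 1.77-fold; edgeR adjusted p = 2.75e-08) at 2 weeks and 0.68 ± 0.12 (1.60-fold; edgeR adjusted p = 0.000109) at 6 weeks. Averaged over both times 97.8% of tested domains had a lower log2 change, against 99.2% for each of the other leads. These ranks, too, are descriptions of leads chosen for gains.

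**Figure D1:**
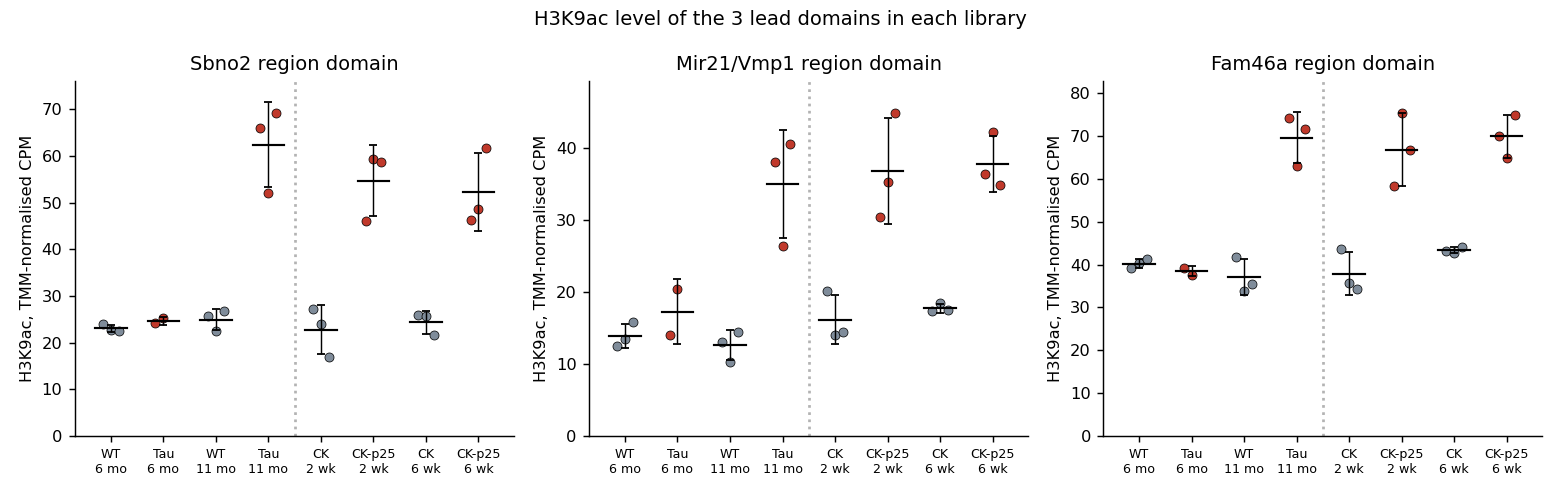
H3K9ac of the 3 lead domains (TMM-normalised CPM, vertical axes from 0) in the 8 groups; each point is a library, the horizontal bar the group mean and the error bar 1 SD, with the tau series left and the CK-p25 series right of the dotted line. CK-p25 libraries lie above the CK libraries at both times, and tau libraries stand high at 11 months, while at 6 months the Mir21 and Fam46a values overlap with wild type.

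No difference between the 2 times was detected in the rise of the leads in CK-p25 mice. The effect at 6 weeks minus that at 2 weeks was -0.22 ± 0.21 on the log2 scale (SE; 95% interval -0.65 to 0.20) at the Sbno2 lead, -0.07 ± 0.25 (-0.56 to 0.42) at the Mir21 lead and -0.15 ± 0.17 (-0.48 to 0.19) at the Fam46a lead. None passed edgeR's test of the difference (adjusted p = 0.999 for each), so a change between the times was not detectable within these intervals. Over all domains 0.00524% had a lower effect at 6 weeks in that test and 0% a higher one. CK controls at 6 and 2 weeks differed by 0.11 to 0.20 on the log2 scale at the leads, and none of these differences passed (edgeR adjusted p = 0.934 to 0.978), as was true of nearly all domains (0.00262% called higher, 0% lower).

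Averaged over both times, the leads changed on the log2 scale by 1.12 ± 0.10 (SE) at the Sbno2 lead (edgeR adjusted p = 7.05e-16), 1.15 ± 0.12 at the Mir21 lead (edgeR adjusted p = 4.57e-13) and 0.75 ± 0.08 at the Fam46a lead (edgeR adjusted p = 4.66e-12). The ratios between leads within a library do not depend on its scaling, and their test was added after the levels were seen. The log2 ratio of Sbno2 over Fam46a reads was higher by 0.43 in CK-p25 than in CK libraries (exact permutation test within times, two-sided, p = 0.005, the smallest 400 arrangements can give; adjusted over 3 ratios 0.0075). Mir21 over Fam46a was higher by 0.38 (exact p = 0.005; adjusted 0.0075). Sbno2 over Mir21 differed by 0.05 (exact p = 0.71; adjusted 0.71), and the sign of that difference changed without CK replicate 3 at 2 weeks (-0.01) or CK-p25 replicate 3 at 6 weeks (-0.04). In tau mice at 11 months Sbno2 over Fam46a was higher by 0.41, Mir21 over Fam46a by 0.55, and Sbno2 over Mir21 was at -0.14. The leads were chosen for gains, with the 11-month changes of Sbno2 and Mir21 in view. The direction of the ratio differences is therefore not independent of the choice.

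In tau mice at 6 months no lead differed from wild type past the threshold. At Sbno2 the wild type libraries measured 23.9, 22.7 and 22.4 CPM and the tau libraries 24.1 and 25.3 CPM. Both tau libraries thus lay just above wild type, as they did at 9.63% of all domains. The log2 change was 0.10 ± 0.14 (SE; 95% interval -0.17 to 0.37). Mir21 values were 12.5, 13.5 and 15.8 CPM in wild type and 14.0 and 20.4 CPM in tau mice, which overlapped, and the log2 change was 0.30 ± 0.19 (-0.07 to 0.67). It rested on single libraries, at 0.55 without tau replicate 1 and 0.01 without tau replicate 2. Fam46a values were 39.2, 40.3 and 41.2 CPM in wild type and 39.3 and 37.7 CPM in tau mice, with a log2 change of -0.06 ± 0.11 (-0.27 to 0.15). None passed edgeR's test (adjusted p = 1 for each). The upper ends of these intervals lie below the log2 changes seen in CK-p25 mice, which had their own controls and antibody lot, and the 2 models were not compared by a test.

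None of the 20 members passed at 6 months, nor did any of 44105 domains (0% called). At an unadjusted p under 0.05 there were 1426 domains, and DESeq2 also called 0. The median log2 change of the members was -0.03, and 8 of 20 were positive, against 49.4% of all domains.

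At 11 months, the contrast behind the choice, the Sbno2 lead measured 25.7, 22.4 and 26.7 CPM in wild type and 66.1, 52.1 and 69.2 CPM in tau mice. For Mir21 the values were 13.01, 10.3 and 14.5 CPM in wild type and 38.0, 26.4 and 40.5 CPM in tau mice. Fam46a measured 41.8, 33.8 and 35.4 CPM in wild type and 74.3, 63.0 and 71.8 CPM in tau mice. Tau replicate 2, which had the lowest cross correlation of the 3 tau libraries (0.206), was the lowest tau library at each lead. The log2 changes were 1.33 ± 0.10 (SE), 1.48 ± 0.15 and 0.91 ± 0.08 in the same order. With cross correlation as a covariate they were 1.55, 1.67 and 1.30. Cross correlation did not overlap between tau and wild type libraries at 11 months, so this fit cannot cleanly separate it from genotype. Over all 44105 domains the fit called 178 higher, against 1940 without the covariate. The larger values are therefore not read as a check on the gains.

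**Figure D2:**
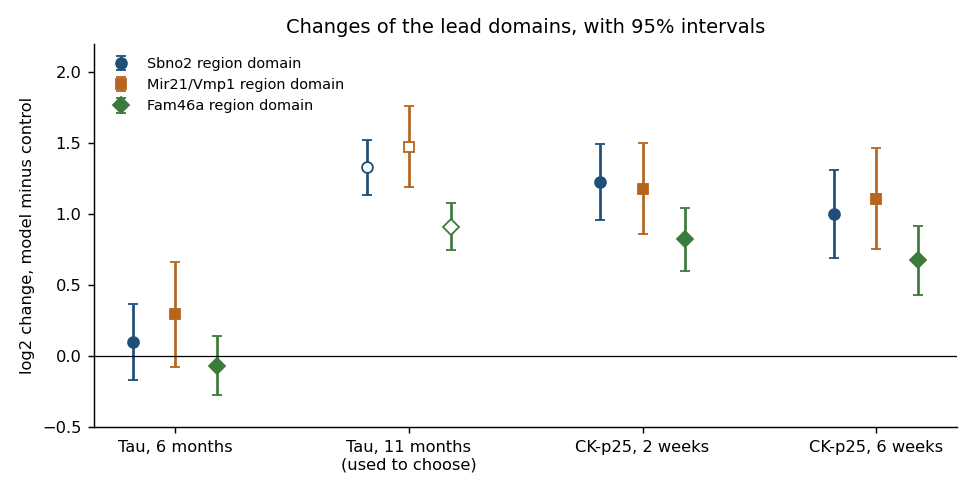
Log2 change of H3K9ac (model minus control, vertical axis) at the 3 lead domains in the 4 comparisons, with 95% intervals; open symbols mark tau mice at 11 months, whose values led to the choice of domains. At 6 months the intervals include 0, and in CK-p25 mice they lie above 0 at both times, with Fam46a lowest in each comparison.

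Within the tau series the order of the Sbno2 group means was wild type at 6 months (23.03 ± 0.804 CPM, SD), tau at 6 months (24.7 ± 0.874), wild type at 11 months (24.9 ± 2.25) and tau at 11 months (62.5 ± 9.10), of which only the last stood outside the spread of the others. Within the CK-p25 series it was CK at 2 weeks (22.7 ± 5.28), CK at 6 weeks (24.4 ± 2.46), CK-p25 at 6 weeks (52.2 ± 8.38) and CK-p25 at 2 weeks (54.7 ± 7.57). The 2 control groups and the 2 CK-p25 groups did not differ beyond their spread. Per kb of domain, the Fam46a lead was the most acetylated of the 3 in control mice. In CK mice at 6 weeks it held 11.5 ± 0.177 CPM per kb (SD, n = 3), against 7.09 ± 0.717 at Sbno2 and 6.33 ± 0.224 at Mir21. In CK-p25 mice at 6 weeks these levels were 18.5 ± 1.32, 15.2 ± 2.44 and 13.5 ± 1.40 CPM per kb.

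Few members other than the leads were called. In CK-p25 mice at 2 weeks 3 of 18 tested members were called higher, against 1.51% of all domains, and these were the leads. The CK-p25 libraries lay wholly above the CK libraries at 8 of the 18 at 2 weeks (8.25% of all domains) and at 6 at 6 weeks (8.81%), the 3 leads among them each time. At 6 weeks 4 of 18 were called higher (1.32% of all domains), the leads and chr11:86394481-86395320. Averaged over both times 5 of 18 were called higher, against 3.20% of all domains. No member was called lower in these 3 comparisons, against 0.613%, 1.33% and 2.75% of all domains. With the DESeq2 Wald test, or without CK replicate 2 at 2 weeks, the average called 3 higher (659 of 35599 and 963 of 39258 of all domains). All 18 tested members had a positive average change, with a median of 0.51 on the log2 scale, against 49.3% positive and a median of 0.00 over all domains. The leads were chosen for gains, and some narrow Mir21/Vmp1 neighbours passed the filter on low counts only through their CK-p25 libraries. Nothing is therefore read from these signs.

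In the Mir21/Vmp1 region 2 of the 5 tested neighbours passed on average, against 3.20% of all domains called higher, and neither passed with DESeq2. Entry of some of the 5 into the test, 1 of the 2 among them, depended on their CK-p25 libraries. Nothing is therefore read from this count. The sum over all neighbours of that region was higher in CK-p25 mice. Reads summed over its 6 neighbours were 18.6 ± 1.23 CPM (SD, n = 3) in CK libraries and 29.6 ± 4.66 CPM with p25 at 2 weeks, and 19.4 ± 2.31 and 35.6 ± 10.004 CPM at 6 weeks. The groups did not overlap at either time. The sum was 1.68-fold higher (exact permutation test within times, two-sided, p = 0.005, the smallest possible; adjusted over 2 regions 0.005). In the Sbno2 region the sum over 11 neighbours was 207 ± 2.62 CPM in CK libraries and 219 ± 5.59 CPM with p25 at 2 weeks, and 211 ± 11.1 and 246 ± 21.8 CPM at 6 weeks. That is 1.11-fold higher (exact p = 0.005; adjusted 0.005). Both sums were added after the levels were seen, and the share of such sums over the genome was not determined. The neighbours lie close to leads chosen for gains, so the direction of these differences may not be independent of the choice.

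Of the named neighbours in the Mir21/Vmp1 region, chr11:86394481-86395320, 3082 bp from the lead, measured 7.96, 6.20 and 7.69 CPM in CK libraries at 2 weeks, and 7.10, 10.95 and 10.28 CPM with p25. At 6 weeks it measured 6.40, 7.24 and 5.13 CPM in CK libraries, and 11.95, 13.06 and 17.0009 CPM with p25. The groups overlapped at 2 weeks and were apart at 6 weeks. Its average log2 change was 0.72 ± 0.20 (SE; edgeR adjusted p = 0.0098) and that at 6 weeks 1.05 ± 0.29 (edgeR adjusted p = 0.0233). The average did not pass with DESeq2 (adjusted p = 0.0679), without CK replicate 2 at 2 weeks (edgeR adjusted p = 0.0565) or without CK-p25 replicate 2 at 2 weeks (0.0574). The 6-week call was lost with DESeq2 (adjusted p = 0.0917) and without any 1 of the CK libraries at 6 weeks (edgeR adjusted p = 0.149, 0.0563 and 0.0774 for replicates 1, 2 and 3) or CK-p25 replicate 3 (0.0886).

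The second, chr11:86391955-86392370, rose by 0.91 ± 0.29 on the log2 scale on average (SE; edgeR adjusted p = 0.0394). It measured 1.92 to 4.10 CPM in the 6 CK libraries and 3.66 to 12.36 CPM in the 6 CK-p25 libraries, where CK-p25 replicate 3 at 6 weeks, a shallow library with 16 reads there, was the highest. Its CK libraries alone would not have passed the filter on low counts, so its entry into the test depended on the CK-p25 libraries. This call was lost without 8 of the 12 libraries, taken 1 at a time, and with DESeq2 (adjusted p = 0.158). Without CK-p25 replicate 3 at 6 weeks the change was 0.70 (edgeR adjusted p = 0.194). The neighbour nearest to the lead, chr11:86398047-86398247, only 201 bp wide, was at a log2 difference of 1.07 ± 0.41 (SE; edgeR adjusted p = 0.122), and chr11:86392594-86392936 was at 0.86 ± 0.32 (0.110). The latter passed without CK-p25 replicate 2 at 6 weeks (edgeR adjusted p = 0.0356). In CK libraries the former measured 0 to 3.08 CPM and the latter 1.03 to 3.20 CPM. Both entered the test only through their CK-p25 libraries, so none of their p-values is read as support.

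In the Sbno2 region 1 of 11 tested domains, the lead, was called on average. The nearest neighbour, chr10:79533599-79535153, was at a log2 difference of 0.27 ± 0.17 (SE; adjusted p = 0.447 in edgeR), and the next on the other side, chr10:79547171-79548243, at 0.51 ± 0.23 (0.218). The other named neighbours, chr10:79525850-79526553 and chr10:79549238-79549957, were at 0.19 ± 0.32 (edgeR adjusted p = 0.854) and 0.54 ± 0.26 (0.257). The remaining 6 neighbours ranged from 0.01 to 0.52. The busiest of them, chr10:79515604-79518799, is almost as wide as the lead at 3196 bp and lay at 97.4 to 100.5 CPM in CK libraries, against 93.6 to 117 CPM with p25. It was singled out after its values were seen.

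**Figure D3:**
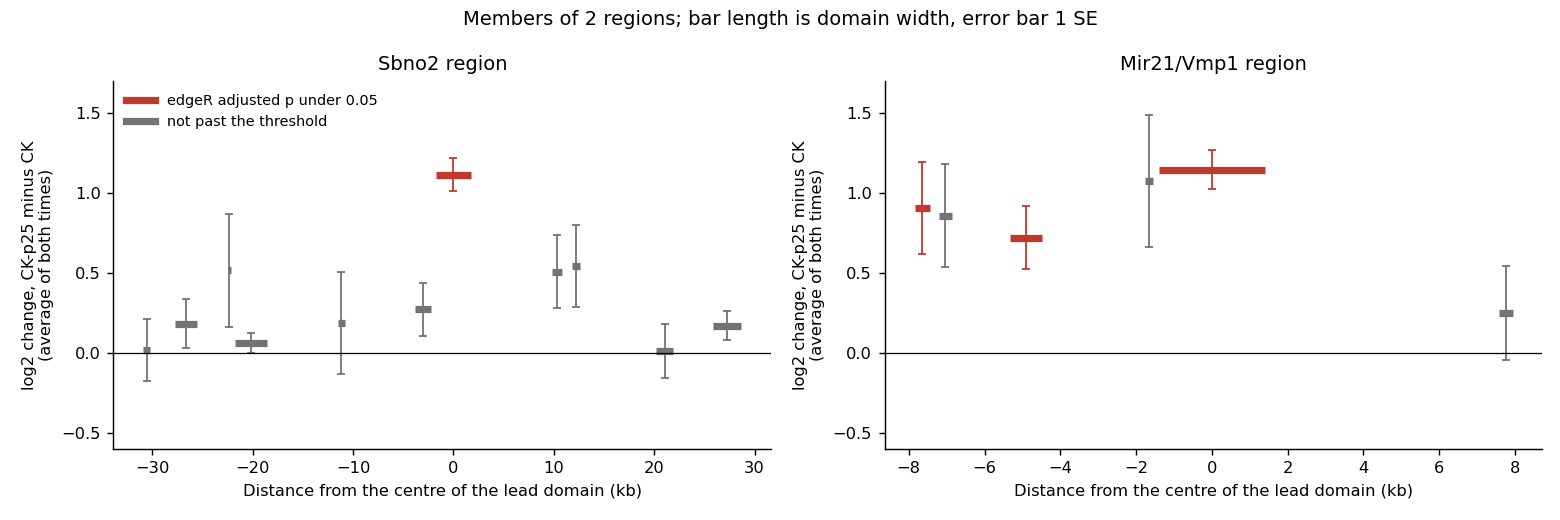
Average log2 change in CK-p25 mice (vertical axis) against distance from the centre of the lead domain in kb, for the tested members of the Sbno2 and Mir21/Vmp1 regions; bar length is domain width, the error bar 1 SE, and red marks an edgeR adjusted p under 0.05. In the Sbno2 region the lead is the 1 domain past the threshold, and in the Mir21/Vmp1 region 3 domains are past it.

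The share of a region's reads that lie in its lead is also independent of library scaling. In the Sbno2 region the lead took 11.5%, 10.5% and 7.53% of the reads in CK libraries at 2 weeks and 17.0%, 21.2% and 21.6% in CK-p25 libraries. At 6 weeks it took 11.2%, 10.3% and 9.59% in CK and 16.8%, 16.9% and 18.6% in CK-p25 libraries. The share was 8.60 percentage points higher in CK-p25 mice over both times (exact permutation test within times, two-sided, p = 0.005, the smallest possible; adjusted over the 2 regions with neighbours 0.01). The lead had been chosen for a gain and its neighbours by distance alone, so the direction of this difference is not independent of the choice. In tau mice at 6 months the share was 10.3% and 10.4%, against 9.47% to 9.63% in wild type (exact p = 0.1, the smallest that 10 arrangements can give). At 11 months it was 17.5% to 21.4% in tau and 8.91% to 9.92% in wild type libraries.

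In the Mir21/Vmp1 region the lead took 41.8% to 53.3% of the reads in CK and 51.9% to 58.4% in CK-p25 libraries at 2 weeks, and 44.7% to 50.5% and 42.5% to 58.3% at 6 weeks. The groups overlapped at both times. The share was 6.68 points higher in CK-p25 mice, which did not pass (exact permutation p = 0.075, two-sided; adjusted 0.075). It rested on single libraries: without CK-p25 replicate 3 at 6 weeks, where the neighbours were highest, the difference was 9.06 points (exact p = 0.015), and without CK replicate 1 at 2 weeks 8.48 points (exact p = 0.045). Leaving out any other single library gave exact p = 0.075 to 0.165. With 100 kb on each side it was 4.92 points (exact p = 0.005), and as a share of summed densities 2.58 points (exact p = 0.15). Tau libraries at 6 months had shares of 51.8% and 58.9%, against 44.4% to 50.6% in wild type (exact p = 0.2, where 0.1 is the smallest possible). The difference between the 2 regions in share was not tested.

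**Figure D4:**
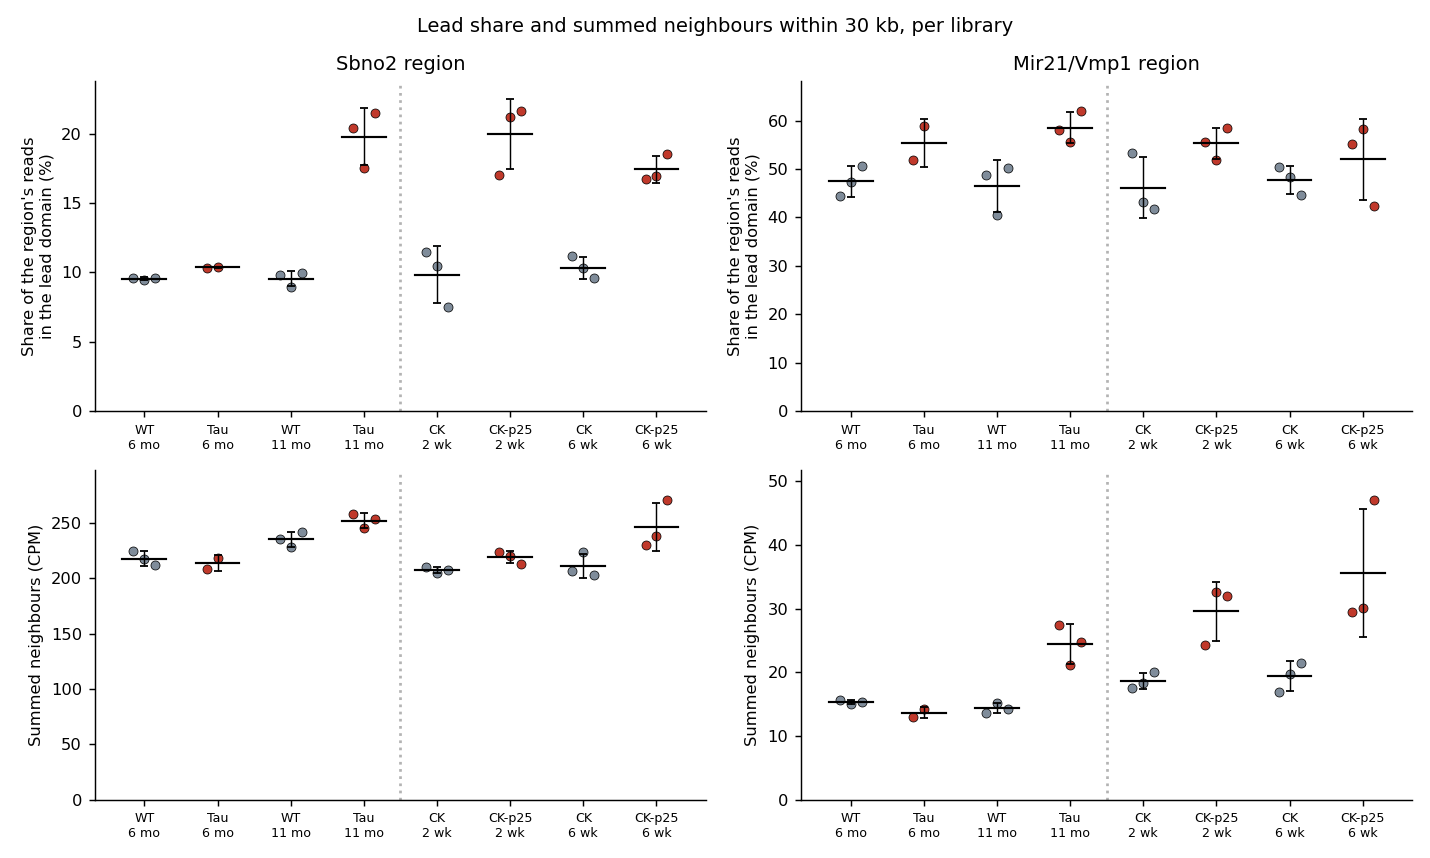
Share of a region's reads in its lead domain (upper panels, %) and summed level of its neighbours within 30 kb (lower panels, CPM) in the 8 groups; points are libraries, horizontal bars means and error bars 1 SD, all axes from 0. In the Sbno2 region the lead's share is near 10% in control groups and 16.8% or more in CK-p25 libraries, while in the Mir21/Vmp1 region the groups overlap in share and the neighbours are higher in CK-p25 libraries.

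At 11 months in tau mice 6 of 20 members had an edgeR adjusted p under 0.05 and a higher level, and 0 a lower one, against 4.40% and 7.56% of all domains. The leads, chosen with this contrast in view, make up 3 of the 6, and nothing is read from the count. All tau libraries lay above all wild type libraries at 11 members, against 11.2% of all domains. Neighbours had a median log2 change of 0.46, and all 7 domains of the Mir21/Vmp1 region were positive, against 9 of 12 in the Sbno2 region. The other members of that count were chr11:86391955-86392370, chr10:79533599-79535153 and chr10:79549238-79549957. Without tau replicate 3, with DESeq2 or with cross correlation as a covariate, the count was 3. Over all domains these runs called 1086 of 44036, 826 of 33033 and 178 of 44105 higher, in that order.

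Of 25671 domains with a mean of at least 5 CPM in each series, those at least 1 Mb from a lead were searched. The level of the Sbno2 lead over the 23 libraries was most like that of the Fam46a lead (Pearson's r = 0.965 on log2 CPM, each series centred on its mean). Next came chr9:108940399-108942009 (r = 0.952) and chr6:125441388-125445333 (r = 0.951). For the Mir21 lead they were chr7:111500704-111501921 (r = 0.955), the Sbno2 lead (r = 0.942) and chr15:74761667-74764197 (r = 0.940). After the Sbno2 lead, the Fam46a lead was most like chr17:34323430-34325584 (r = 0.939) and the Mir21 lead (r = 0.938). These coefficients are descriptions: the libraries share depth and groups, the libraries fall into high and low groups, and the leads were chosen together for their gains. By rank correlation 0, 1 and 0 of these 3 domains stayed among the top 3 of the Sbno2, Mir21 and Fam46a leads.

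Outside the members, chr9:108940399-108942009 had differences of 0.70 at 2 weeks and 0.63 at 6 weeks in CK-p25 mice on the log2 scale, and of 0.02 and 0.52 in tau mice at 6 and 11 months. The domain chr7:111500704-111501921 was at 1.13, 1.06, 0.15 and 1.28 in the same order, and chr17:34323430-34325584 at 0.95, 1.00, 0.16 and 0.84. The values were 0.71, 0.58, 0.002 and 0.66 at chr6:125441388-125445333, and 1.35, 1.08, 0.10 and 1.32 at chr15:74761667-74764197. All were picked for likeness to a lead over these same libraries, so changes like those of the leads follow from the picking.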

How the data were processed

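H3K9ac ChIP-seq of hippocampus was taken from 23 libraries in 8 groups. The 22 input libraries have no column in the count matrix and were not analysed here. The authors deposited a matrix of counts, unnormalized whole numbers of reads in a common set of domains, per the series' design text. Domain positions are those of the deposited list, in mm9, and are given 1-based. BWA, Picard 1.1175 and MACS2 are named, without roles or settings, in the submitters' processing notes. Filters and the way reads were assigned are not given in the sources used here.

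Counts were tested with edgeR 4.0.16 (R 4.3.3): quasi-likelihood F test, robust dispersions, TMM scaling, the filterByExpr filter by group, one mean per group, two-sided, with Benjamini-Hochberg adjustment over all domains tested and a threshold of 0.05. Series were fitted apart, with 11 tau and 12 CK-p25 libraries. Standard errors are the size of the log2 change over the square root of F, and 95% intervals use the normal quantile. The fit was tested on simulated data. Shares and ratios were compared by exact permutation of libraries within a time, with p adjusted over the 2 regions that have neighbours or the 3 ratios. Likeness used log2 CPM (prior count 2) of domains with at least 5 CPM in each series.

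The members and lists were chosen with earlier results of these data known. Named were the leads, up to 4 neighbours per region (those past the threshold in the average CK-p25 contrast, then the nearest) and the 3 domains most like each lead. No gene was assigned to a domain, so marker and pathway lists were not tested. Alternatives were other scalings (DESeq2 1.42.0 size factors, library totals, loess offsets), no filter, the DESeq2 Wald test, a replicate block, cross correlation as a covariate, autosomes alone, compared groups alone, a threshold of 0.01, windows of 10 and 100 kb, densities in place of reads, another prior or rank correlation, and libraries left out.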

Additional observations from a re-analysis of the deposited data

Results flagged for a closer look

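At 6 members both tau libraries lay on one side of the wild type mean at 6 months and all 3 on the other side at 11 months. The share of all domains with this pattern was not determined, so nothing is read from the count. The fitted difference between the ages uses the 11-month values behind the choice of the leads, so it is not given as a test, and the difference was not tested in other libraries. The Fam46a lead was -1.77 CPM from wild type at 6 months and 32.6 CPM above it at 11 months. Of the neighbours in the Sbno2 region, chr10:79533599-79535153 was at -1.56 and 4.88 CPM (mean tau minus wild type), and chr10:79506495-79507203 at -0.724 and 2.48 CPM. In the Mir21/Vmp1 region chr11:86392594-86392936 was at -0.860 and 1.85 CPM, chr11:86394481-86395320 at -0.550 and 2.06 CPM, and chr11:86398047-86398247 at -0.649 and 1.12 CPM. Age and sex cannot be told apart between these groups. The neighbours' values at 6 months rest on 2 tau libraries.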

How the results depend on the processing

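Of 911 alternative values, 869 kept the result of the chosen processing. For tests this meant the same direction and side of the threshold. Values that used 11-month libraries had to keep their direction and move by less than the spread. Counts of called members had to stay close to the first count, and lists of most alike domains had to keep most of their members. At the 3 leads every alternative run kept the CK-p25 calls at 2 weeks, at 6 weeks and on average; the weakest was Fam46a at 6 weeks without CK replicate 1 (edgeR adjusted p = 0.00562). Averages ranged from 1.05 to 1.18 at Sbno2, 1.07 to 1.23 at Mir21 and 0.70 to 0.80 at Fam46a (log2). With cross correlation as a covariate the 11-month changes were 1.55 at Sbno2 and 1.30 at Fam46a (log2). That covariate did not overlap between the genotypes at 11 months, and the cause was not tested. Differences near 0 changed sign when a library was left out: CK at 6 minus 2 weeks at Sbno2 (-0.0197 to 0.2077, lowest without CK replicate 3 at 2 weeks), the CK-p25 effect at 6 minus 2 weeks at Mir21 (-0.2314 to 0.0847; above 0 without CK replicate 2 or CK-p25 replicate 3 at 2 weeks) and the Sbno2 over Mir21 ratio (-0.0415 to 0.1253 with 1 library left out, -0.0793 without both shallow 6-week libraries). Members called higher on average in CK-p25 mice numbered 3 with DESeq2, which called 659 of 35599 domains higher, and 3 to 6 with a library left out. The lowest of these counts was without CK replicate 2 at 2 weeks (963 of 39258 domains higher) and the highest without CK-p25 replicate 2 at 6 weeks (1198 of 39143). The share of the Mir21 lead was 5.09 to 9.06 points higher with a library left out (exact permutation p = 0.015 to 0.165). It was 8.29 points higher (exact permutation p = 0.0333) without both shallow libraries. Within 100 kb it was 4.92 points higher (exact permutation p = 0.005), and with densities 2.58 points (exact permutation p = 0.15).

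Replicate numbers are shared between groups, but the labels do not tie a number to a litter or batch. Over 11 same-numbered pairs the correlation of deviations was small, at -0.0119 to 0.0516. At 11 months and at 6 weeks each control library was nonetheless correlated most with the model library of its own number. A pairing by number is therefore not excluded. With a replicate block the log2 changes at 2 weeks were 1.24 at Sbno2, 1.17 at Mir21 and 0.83 at Fam46a. In that fit 3, 4 and 5 members were called higher at 2 weeks, 6 weeks and on average, as without the block. Over all domains it called 617, 556 and 1295 of 38193 higher. Depth limits the narrow neighbours most: chr11:86398047-86398247 held 0 to 15 reads per library.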
